A study of Mus musculus with 6 samples.

Results

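The 10 genes described here encode enzymes and 1 channel with which a fat cell builds triglyceride: Pck1, Gpd1 and Aqp7, which deal with glycerol 3-phosphate and glycerol, the glycerol 3-phosphate acyltransferases Gpam, Gpat3 and Gpat4, the 1-acylglycerol 3-phosphate acyltransferase Agpat2, the phosphatidate phosphatase Lpin1, and the diacylglycerol acyltransferases Dgat1 and Dgat2. They were taken by gene name from a count table of 54532 genes, and all 10 were found and passed the filter that left 16003 genes for testing. RNA-seq was done on epididymal white adipose tissue (eWAT), a visceral fat depot, from 3 mice with cachexia and 3 control mice, all C57BL/6. Per the methods, these were males of 6 to 10 weeks, cachexia was induced by subcutaneous inoculation of LLC cells (Lewis lung carcinoma, a mouse lung cancer line), mice that had lost over 20% of body weight were defined as cachectic, and tissue was analysed on day 21. What the control mice received is not given in the sources used here. Tumor and weight loss come together in this design and cannot be told apart.

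Triglyceride is made by adding fatty acids stepwise to glycerol 3-phosphate. GPAT adds the first acyl chain, AGPAT the next, lipin removes the phosphate to give diacylglycerol, and DGAT adds the last chain. White fat cells have little glycerol kinase and so make glycerol 3-phosphate with Gpd1, from an intermediate that comes from glucose or, in fasting, from pyruvate through glyceroneogenesis, in which Pck1 makes phosphoenolpyruvate.

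The total count per sample lay between 14928766 and 18855546, and each cachectic mouse had fewer counts than each control mouse. Levels are in CPM, with library sizes corrected by TMM factors, and a fold change is the cachectic over the control level from edgeR's quasi-likelihood test, with p-values adjusted by Benjamini-Hochberg over all 16003 genes and called under 0.05. The labels number the samples within each group, and each sample was taken as a separate mouse. In a principal component analysis, control replicate 1 stood apart from the other controls on the component that held 16.3% of the variance. Without it, the calls on the 10 genes were the same in number, 2 higher and 4 lower. Of 10 adipocyte markers, none was at 0 in all mice. Their summed expression was 27060 to 34824 CPM in control and 29451 to 45762 CPM in cachectic mice. In bulk tissue, fewer cells of a type and less RNA per cell cannot be told apart.

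Expression of 6 of the 10 genes changed in cachectic mice (edgeR, adjusted p under 0.05). Pck1 and Lpin1 rose, and Dgat2, Agpat2, Gpat3 and Gpd1 fell. Gpam, Gpat4, Dgat1 and Aqp7 did not pass the test. For comparison, 17.6% of all tested genes passed, 9.0% with higher and 8.63% with lower expression. The calls changed with single mice, here and over all genes. Without control replicate 3, 0 of the 10 passed as higher and 2 as lower, and 5.02% of all genes passed. Without control replicate 2, 1 passed as higher and 2 as lower, and 7.92% of all genes passed. Without cachexia replicate 3, 1 passed as higher and 3 as lower, and 14.2% of all genes passed. In the same 6 genes the values of the groups did not overlap, as in 40.5% of all tested genes. The median log2 fold change of the 10 genes was 0.05, against -0.00 over all tested genes, while the median absolute log2 fold change was 1.10 against 0.37. The genes thus moved in both directions. Of the lower ones, Dgat2, Agpat2 and Gpat3 belong to the acyl transfer steps, as do Gpam, Gpat4 and Dgat1, which did not pass.

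**Figure D1:**
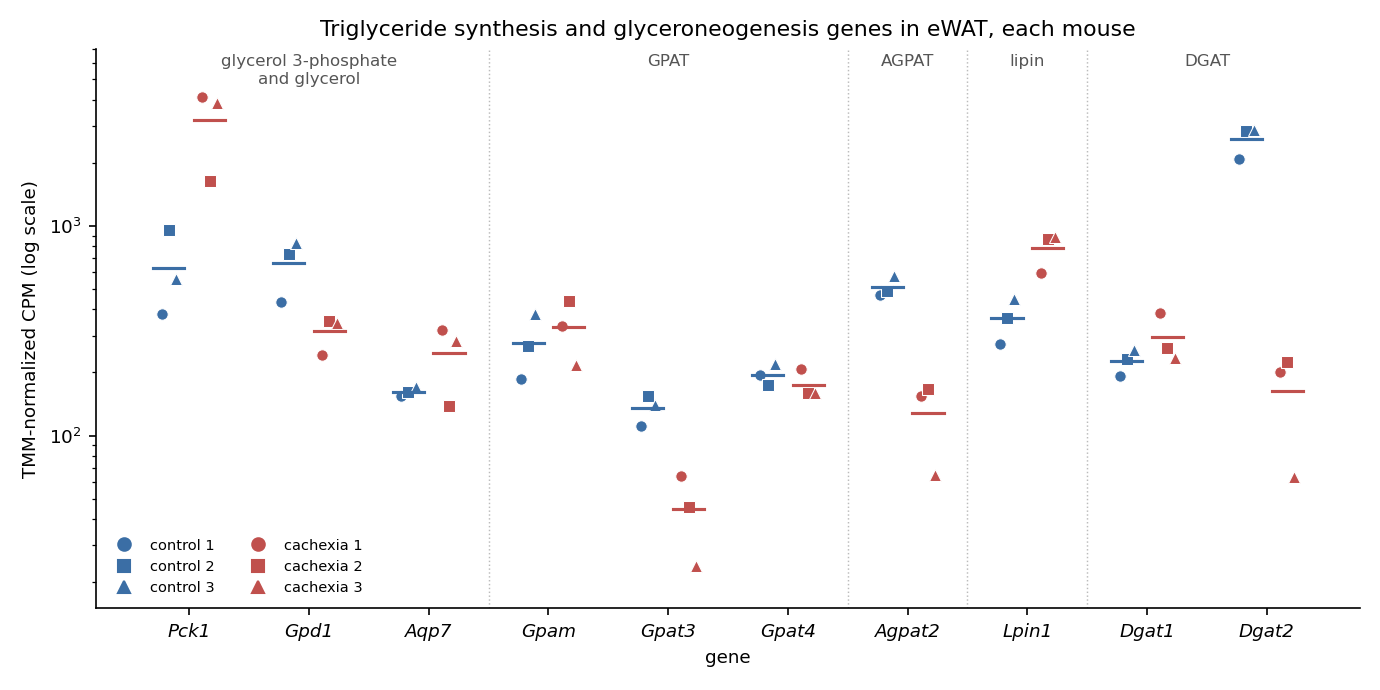
TMM-normalized CPM on a log axis of the 10 genes in each of the 6 mice, grouped by step of the pathway. Points are mice, with the marker shape giving the replicate number, and horizontal lines are group means. Dgat2 sits between 2091 and 2882 CPM in control mice and between 63.7 and 224 CPM in cachectic mice, while Pck1 lies at 379 to 953 and 1634 to 4136 CPM.

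**Figure D2:**
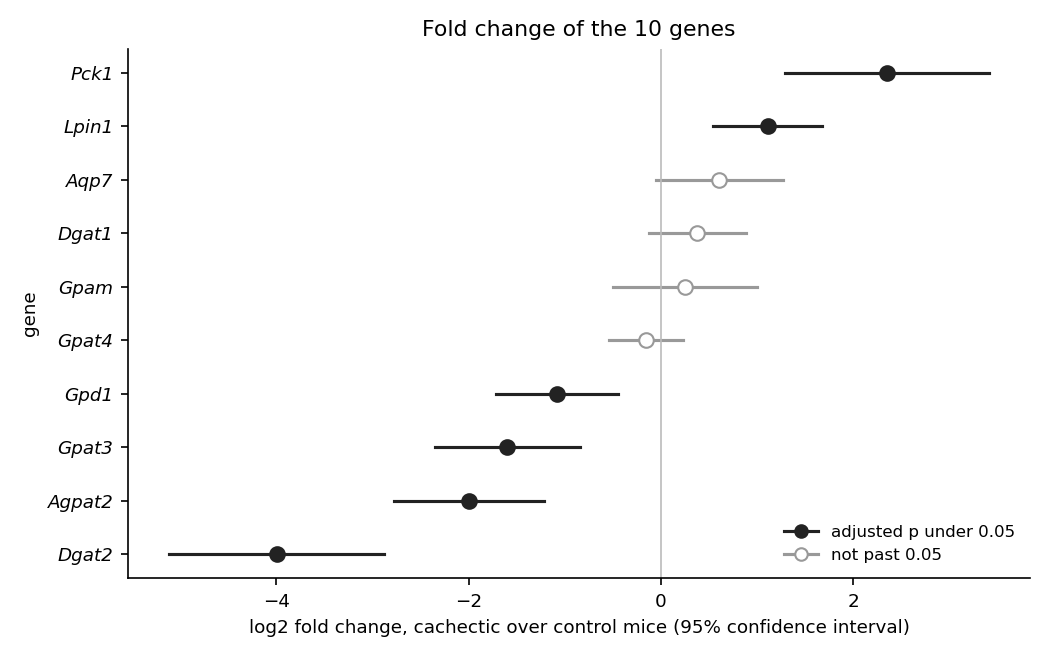
Log2 fold change of cachectic over control mice for the 10 genes, with 95% confidence intervals as bars (edgeR, n = 3 mice per group). Filled points had an adjusted p under 0.05. They run from -4.0 for Dgat2 to 2.35 for Pck1.

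For 3 of the genes that passed the test, a window upstream of the RefSeq start that holds no annotated exon is printed to show the sequence beside which the changes were measured. Promoters were taken from RefSeq on GRCm38.p6, and 6 of the 10 genes had one in the table used here. Each window is written 5′ to 3′ on the gene's strand, from 250 to 26 bases before the RefSeq start, because the bases nearer to that start of Pck1 are annotated as exon. In the windows of 225 bases, capitals mark letters that matched a searched motif on either strand. The windows are chr2:26604443-26604667 (minus strand) for Agpat2, chr2:173152823-173153047 (plus strand) for Pck1 and chr12:16610992-16611216 (minus strand) for Lpin1.
Agpat2: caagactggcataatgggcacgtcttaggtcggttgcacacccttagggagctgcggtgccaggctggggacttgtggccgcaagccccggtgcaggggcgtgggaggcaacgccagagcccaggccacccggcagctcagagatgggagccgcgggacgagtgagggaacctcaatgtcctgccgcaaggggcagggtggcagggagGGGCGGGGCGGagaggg
Pck1: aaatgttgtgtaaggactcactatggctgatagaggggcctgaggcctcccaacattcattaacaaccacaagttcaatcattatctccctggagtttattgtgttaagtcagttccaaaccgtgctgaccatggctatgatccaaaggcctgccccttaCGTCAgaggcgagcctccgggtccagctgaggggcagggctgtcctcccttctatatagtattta
Lpin1: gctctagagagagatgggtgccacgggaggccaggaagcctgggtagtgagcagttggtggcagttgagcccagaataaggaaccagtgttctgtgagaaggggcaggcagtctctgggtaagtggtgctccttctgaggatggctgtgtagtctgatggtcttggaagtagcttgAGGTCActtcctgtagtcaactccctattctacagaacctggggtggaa
The Agpat2 window, at 68.9% GC, holds GGGCGG, the GC box bound by Sp proteins, at 42 to 37 and again at 37 to 32 bases before the start, the 2 matches sharing a base. The Pck1 window, at 49.3% GC, holds CGTCA, the reverse complement of TGACG, the core of the cAMP response element, at 90 to 86 bases. The Lpin1 window, at 54.2% GC, holds AGGTCA, the hexamer recognised by many nuclear receptors, at 74 to 69 bases. Of 32851 promoter windows of the same 225 bases, 29.2% hold GGGCGG, 15.3% TGACG and 12.8% AGGTCA on either strand, and the median GC content is 52%. TATAAA (10.6% of windows), CCAAT (31.6%) and CACGTG (5.16%) were also searched and have no match in these 3 windows. A match describes letters and is no evidence of binding.

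The strongest decrease was at the last step. Dgat2, on chromosome 7 from 99153658 to 99182719, encodes the acyltransferase of the endoplasmic reticulum and lipid droplet surface that esterifies newly made fatty acids. Its expression was 2091, 2839 and 2882 CPM in the control mice and 202, 224 and 63.7 CPM in the cachectic mice, in the order of their replicate numbers, as for every gene that follows. Every cachectic mouse was far below every control mouse, and cachexia replicate 3 was the lowest. Dgat2 fell by 4.0 on the log2 scale (standard error 0.48, 95% confidence interval -5.11 to -2.88, edgeR adjusted p = 0.00315), a 16.0-fold lower expression, and ranked 49 among all tested genes ordered from the lowest log2 fold change. Leaving out any single mouse kept the log2 fold change between -4.29 and -3.61 and under the threshold.

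Dgat1, on chromosome 15 from 76502015 to 76511953, encodes the unrelated enzyme that catalyses the same reaction and also re-esterifies fatty acids released by lipolysis. Its expression was 193, 231 and 255 CPM in control and 384, 263 and 234 CPM in cachectic mice. The groups overlapped, since cachexia replicate 3 lay below control replicate 3. The log2 fold change was 0.38 (95% confidence interval -0.13 to 0.88, edgeR adjusted p = 0.26). The interval leaves room for an increase but not for a decrease like that of Dgat2.

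Per kilobase of gene length, Dgat2 made up 91.5%, 92.4% and 91.8% of the summed CPM of the DGAT pair in control mice, and 34.2%, 45.8% and 21.2% in cachectic mice. Dgat1 was thus the minor transcript of the pair in each control mouse and the major one in each cachectic mouse. The summed CPM per kilobase of both genes was 919 ± 154 (SD, n = 3) in control and 149 ± 47.7 (SD, n = 3) in cachectic mice. The groups did not overlap in the share or in the sum, and each gave p = 0.1 in a two-sided exact permutation test, the smallest value that 3 mice against 3 can give. Adjusted over the 10 shares computed, one for each gene, the exact permutation p of the share was 0.167, so no share could pass the threshold in this design.

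At the AGPAT step, Agpat2 fell. Agpat2, on chromosome 2 from 26593057 to 26604417, makes phosphatidate, and its loss in humans causes generalized lipodystrophy. Its expression was 471, 490 and 576 CPM in control and 155, 166 and 64.9 CPM in cachectic mice. Each cachectic mouse was lower than each control mouse, and cachexia replicate 3 was again the lowest. Agpat2 fell by 1.99 on the log2 scale (standard error 0.34, edgeR adjusted p = 0.00901), a 3.98-fold lower expression, and passed the threshold without any single mouse (log2 fold change -2.22 to -1.67). Its exons overlap those of Egfl7, an endothelial gene on the opposite strand, and the strand setting of the counting is not given in the sources used here. Egfl7 moved the other way, with 85.7 to 118 CPM in control and 149 to 171 CPM in cachectic mice (log2 fold change 0.69, edgeR adjusted p = 0.0234).

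The paralogs of Agpat2 did not pass the test. Their log2 fold changes were -0.15 for Agpat1, -0.20 for Agpat3, 0.40 for Agpat4 and -0.16 for Agpat5, with adjusted p between 0.345 and 0.598 (edgeR). Per kilobase, Agpat2 made up 80.1% ± 1.29 (SD, n = 3) of the summed CPM of the 5 AGPAT genes in control mice and 50.7% ± 11.8 (SD, n = 3) in cachectic mice, and the sum went from 300 ± 29.2 to 115 ± 28.5. Neither the share nor the sum overlapped between the groups (exact permutation p = 0.1 for each, n = 3, and 0.167 adjusted over the shares).

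At the GPAT step, which starts the pathway, 1 of the 3 genes fell. Gpat3, on chromosome 5 from 100845713 to 100899102, encodes the GPAT of the endoplasmic reticulum that is induced when adipocytes differentiate. Its expression was 111, 154 and 140 CPM in control and 64.4, 45.8 and 23.9 CPM in cachectic mice. The groups did not overlap. Gpat3 fell by 1.60 on the log2 scale (standard error 0.33, edgeR adjusted p = 0.0169), a 3.02-fold lower expression. Without control replicate 2 the adjusted p was 0.057, and without control replicate 3 it was 0.0627, with log2 fold changes of -1.49 and -1.57 (edgeR). Gpat3 shares exons with 4930458D05Rik on the other strand and Gm42987 on the same strand, which had at most 101 and 21 counts in any mouse.

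Gpam, on chromosome 19 from 55069734 to 55099451, encodes the mitochondrial GPAT. Its expression was 186, 267 and 381 CPM in control and 334, 440 and 217 CPM in cachectic mice, and the groups overlapped widely. The log2 fold change was 0.25 (95% confidence interval -0.50 to 1.00, edgeR adjusted p = 0.628), and it was -0.01 without cachexia replicate 2. Gpat4, on chromosome 8 from 23171265 to 23208346, encodes a further GPAT of the endoplasmic reticulum. Its expression was 194, 173 and 218 CPM in control and 208, 159 and 159 CPM in cachectic mice, with a log2 fold change of -0.16 (95% confidence interval -0.54 to 0.23, edgeR adjusted p = 0.547). Gpat4 had the narrowest interval of the 10 genes, and changes beyond 0.54 on the log2 scale lie outside it.

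Within the GPAT step, some shares differed between the groups while the sum overlapped. Shares of a step depend on each other, so lower Gpat3 by itself raises the share of Gpam, which did not pass the test. Per kilobase, Gpat3 made up 27.9% ± 4.25 (SD, n = 3) of the summed CPM in control and 9.96% ± 3.05 (SD, n = 3) in cachectic mice. Gpam made up 50.6% ± 6.77 and 68.1% ± 6.61 (SD, n = 3), and Gpat4 21.4% and 21.9%. The shares of Gpat3 and Gpam did not overlap between the groups (exact permutation p = 0.1 for each, n = 3, adjusted 0.167), whereas that of Gpat4 did (exact permutation p = 0.9). The sum was 140 ± 31.4 CPM per kilobase in control and 125 ± 33.7 in cachectic mice (exact permutation p = 0.6, n = 3). Gpat2, the remaining GPAT gene, had at most 7 counts in any mouse and was not tested.

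**Figure D3:**
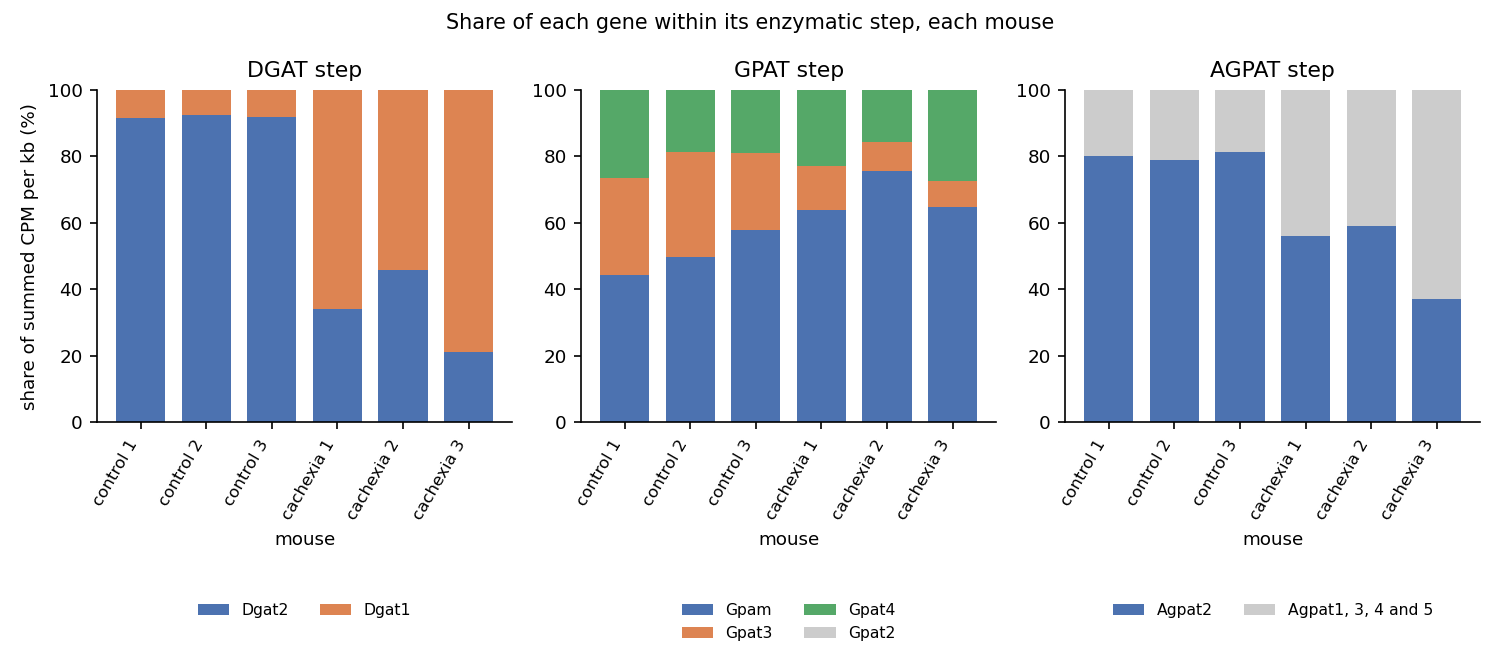
Share of each gene in the summed CPM per kilobase of the DGAT, GPAT and AGPAT steps, as stacked bars from 0 to 100% for each of the 6 mice. Dgat2 falls from 91.5–92.4% in the control mice to 21.2–45.8% in the cachectic mice, and Agpat2 from 78.7–81.3% to 37.2–58.9%.

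At the lipin step, expression rose. Lpin1, on chromosome 12 from 16535669 to 16610966, encodes the phosphatidate phosphatase that gives diacylglycerol and that also acts as a transcriptional coactivator. Its expression was 273, 365 and 449 CPM in control and 597, 867 and 884 CPM in cachectic mice, so the groups did not overlap. The log2 fold change was 1.11 (standard error 0.25, edgeR adjusted p = 0.0215), a 2.16-fold higher expression. This call was close to the threshold: leaving out control replicate 2 or 3, or cachexia replicate 2 or 3, gave adjusted p of 0.0767, 0.0501, 0.0526 and 0.0503 in turn (edgeR), with log2 fold changes between 1.02 and 1.29. Of its paralogs, Lpin2 had a log2 fold change of -0.21 (adjusted p = 0.584) and Lpin3 one of 1.61 (adjusted p = 0.0605), and neither passed edgeR's test. Lpin3 passed without cachexia replicate 1 (log2 fold change 2.03, edgeR adjusted p = 0.00616), without the filter on low counts (adjusted p = 0.0247) and in DESeq2 (adjusted p = 0.00492), and its log2 fold change was 1.05 without cachexia replicate 2. Lpin1 remained the main lipin transcript, with 87.9% of the summed CPM per kilobase in control and 89.0% in cachectic mice (exact permutation p = 0.7, n = 3).

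In the supply of glycerol 3-phosphate, Pck1 rose and Gpd1 fell. Pck1, on chromosome 2 from 173153048 to 173159273, encodes cytosolic phosphoenolpyruvate carboxykinase, the controlling enzyme of glyceroneogenesis in fat and of gluconeogenesis in liver. Its expression was 379, 953 and 558 CPM in control and 4136, 1634 and 3873 CPM in cachectic mice. All cachectic mice were higher than all control mice, and the values nearest each other were those of the mice numbered 2 in each group. The log2 fold change was 2.35 (standard error 0.46, 95% confidence interval 1.29 to 3.41, edgeR adjusted p = 0.0143), a 5.10-fold higher expression. Without control replicate 3 the adjusted p was 0.0713 at a log2 fold change of 2.26 (edgeR). Pck2, the mitochondrial isoenzyme, also rose, from 28.9–39.6 CPM to 49.5–62.0 CPM (log2 fold change 0.74, edgeR adjusted p = 0.0228). Per kilobase, Pck1 held 97.3% of the summed CPM of the pair in control and 99.1% in cachectic mice (exact permutation p = 0.2, n = 3).

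Gpd1, on chromosome 15 from 99717515 to 99725005, encodes cytosolic glycerol 3-phosphate dehydrogenase, which makes glycerol 3-phosphate from an intermediate of glycolysis and glyceroneogenesis. Its expression was 435, 732 and 828 CPM in control and 243, 353 and 346 CPM in cachectic mice. The groups did not overlap, with control replicate 1 nearest to the cachectic mice. Gpd1 fell by 1.08 on the log2 scale (standard error 0.27, edgeR adjusted p = 0.0327), a 2.12-fold lower expression. The call was kept without control replicate 1 (log2 fold change -1.31) and was lost without any other single mouse, at log2 fold changes of -1.17 to -0.90 and adjusted p of 0.0598 to 0.121 (edgeR). Gpd1l, its paralog, and the mitochondrial Gpd2 had log2 fold changes of 0.02 and -0.55 and did not pass (edgeR adjusted p = 0.933 and 0.492). Tpi1, which interconverts the triose phosphates of glycolysis, among them the substrate of Gpd1, fell, from 339–363 CPM to 109–184 CPM (log2 fold change -1.17, edgeR adjusted p = 0.0108).

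Aqp7, on chromosome 4 from 41033074 to 41048139, encodes the aquaglyceroporin through which adipocytes release glycerol. Its expression was 155, 161 and 170 CPM in control and 318, 138 and 284 CPM in cachectic mice. Cachexia replicates 1 and 3 were above all controls, while cachexia replicate 2 was below them. The log2 fold change was 0.61 (95% confidence interval -0.05 to 1.27, edgeR adjusted p = 0.175). Without cachexia replicate 2, the mouse below the controls, it was 0.90, with an adjusted p of 0.0148 (edgeR). This was the only 1 of 15 alternatives in which Aqp7 passed. Glycerol kinase (Gk) and Aqp9 had log2 fold changes of -1.49 and -2.19 without passing (edgeR adjusted p = 0.0917 and 0.0975). Both were high in control replicate 1, with 56.3 CPM of Gk against 13.9 and 14.1 in the other controls and 12.2 CPM of Aqp9 against 2.35 and 1.98. Without this mouse their log2 fold changes were -0.48 and -0.84. Aqp3 had at most 10 counts in any mouse and was not tested.

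With levels set per kilobase of gene length, so that genes can be compared, Dgat2 was the most abundant of the 10 in control mice, at 845 CPM per kilobase. The length is a single value per gene supplied with the counts, and the length of the transcripts expressed was not tested. Agpat2 (240), Gpd1 (225) and Pck1 (184) followed with overlapping ranges, then Dgat1 (74.0), Gpam (72.5) and Aqp7 (57.3), and Gpat3 (38.6), Lpin1 (37.5) and Gpat4 (29.2) were the lowest. Neighbours whose ranges did not overlap were Dgat2 and Agpat2, Pck1 and Dgat1, and Aqp7 and Gpat3.

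In cachectic mice the order was led by Pck1, at 937 CPM per kilobase. Gpd1 (106), Dgat1 (96.2), Aqp7 (87.3), Gpam (86.2), Lpin1 (81.0), Agpat2 (60.4), Dgat2 (52.9) and Gpat4 (26.2) each overlapped their neighbour in that order, and Gpat3 (12.8) lay below Gpat4 in all 3 mice. Among all tested genes ordered by CPM per kilobase, Dgat2 went from rank 33 to rank 880 and Pck1 from rank 181 to rank 31. The summed CPM per kilobase of the 10 genes was 1803 ± 338 (SD, n = 3) in control and 1546 ± 382 (SD, n = 3) in cachectic mice, with overlapping groups (exact permutation p = 0.5). Of that sum, Dgat2 held 46.4% to 48.0% in control and 1.25% to 6.47% in cachectic mice, and Pck1 7.83% to 14.0% and 42.4% to 68.3%. Dgat2 was thus the largest single part of the sum in each control mouse and Pck1 in each cachectic mouse.

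The levels of the 10 genes were also set against those of fat cell markers in the same mouse. The mean log2 CPM of 9 adipocyte markers, without Lep, was 11.2 in control and 11.3 in cachectic mice (difference 0.11, exact permutation p = 0.7, n = 3). Relative to that mean, the differences between the groups were -4.29 for Dgat2, -2.21 for Agpat2, -1.80 for Gpat3, -1.16 for Gpd1, 1.00 for Lpin1 and 2.23 for Pck1 on the log2 scale. The groups did not overlap for any of these 6 genes (exact permutation p = 0.1 for each, n = 3, 0.167 adjusted over the 10 genes), and they overlapped for the other 4. These are the same 6 genes whose CPM did not overlap, as in 40.5% of all tested genes. The share of all genes that do not overlap on this relative scale was not computed. Against Plin1 and Adipoq alone, the value of each gene was higher. Gpd1 was then at -0.48 (exact permutation p = 0.7, n = 3), so its separation depended on the markers used, while Dgat1 and Aqp7, at 0.92 and 1.09, then reached the exact permutation p of 0.1. The markers themselves did not move together. Cidec and Pnpla2, a lipid droplet protein and the main triglyceride lipase, rose (log2 fold change 0.87 and 1.08, edgeR adjusted p = 0.0322 and 0.0197), while Lep, the hormone leptin, fell (-3.14, adjusted p = 0.0475). Plin1, which coats the lipid droplet, had a log2 fold change of -1.44 (edgeR adjusted p = 0.057).

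Markers of some other cell types moved with the groups, and their part in the results for the 10 genes was not tested. For comparison, 9.0% of all tested genes rose and 8.63% fell. Of 9 neutrophil markers tested, 8 rose, with a summed 32.3 to 49.6 CPM in control and 250.3 to 793 CPM in cachectic mice. All 5 erythroid markers rose, from 252 to 451 CPM to 1331 to 2850 CPM, and 4 of 8 endothelial markers rose, from 1560 to 1606 CPM to 2214 to 3174 CPM. Of 8 progenitor and fibroblast markers, 1 rose and 3 fell, with 5252 to 6009 CPM in control and 2480 to 3391 CPM in cachectic mice. Mean expression went from 2475 to 272 CPM for Col3a1 and from 632 to 104 CPM for Col1a1. Dcn, which did not pass, was at 2058 and 1976 CPM, so the sum did not stand for all markers of this list. Of 9 macrophage markers, 1 rose and 1 fell, and none of 6 mesothelial and 7 lymphocyte markers passed. In each of these lists every marker had counts in some mouse. The 6 epididymis markers had at most 15 counts in any mouse. Of 5 brown adipocyte markers, 3 were tested and 1 of them, Dio2, was lower. Of 5 skeletal muscle markers, 2 were tested and neither passed, and Myh4 was at 0 in all mice.

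Genes of neighbouring reactions were taken from 6 lists. Of their 69 genes in the count table, 64 were tested, of which 9 rose and 10 fell, or 29.7% of those tested against 17.6% of all genes. Without control replicate 3, 2 passed as higher and 3 as lower, and 5.02% of all genes passed. Omitting control replicate 2 left 3 as higher and 5 as lower, and 7.92% of all genes passed. Of these 19 genes, 5 passed in every alternative that gave a value (Mogat1, Mogat2, Slc27a1, Crls1 and Insig1). In the list of other acyl transfer and dephosphorylation genes, 1 of 12 tested rose and 3 fell, with a median log2 fold change of -0.20. Those that fell included both monoacylglycerol acyltransferases, which make diacylglycerol without the lipin step. Mogat1 had 29.8, 43.7 and 49.6 CPM in control and 14.8, 6.63 and 12.7 CPM in cachectic mice (log2 fold change -1.85, edgeR adjusted p = 0.009). Mogat2 had 2.71 to 5.27 CPM in control and 0.0614 to 0.656 CPM in cachectic mice (log2 fold change -3.68, edgeR adjusted p = 0.0129). At these low levels its size depended on the setting, with -4.92 without cachexia replicate 3 and -1.39 in limma when 1 was added to the FPKM values, and it passed in each. Among the lipid phosphate phosphatases, Plpp3 fell (log2 fold change -0.75, edgeR adjusted p = 0.0275) and Plpp1 rose (1.06, adjusted p = 0.0316), though not in limma on log2 FPKM (adjusted p = 0.0552 and 0.0505 with pseudocounts of 1 and 0.1). In the list of other genes of glycerol 3-phosphate and glycerol, 1 of 11 tested rose (Pck2) and 1 fell (Tpi1), with a median of -0.43.

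Fatty acids enter the pathway as acyl-CoA. Of 6 tested acyl-CoA synthetases and fatty acid transport proteins, Slc27a1 rose, from 300.4, 316 and 347 CPM in control to 2193, 1906 and 2036 CPM in cachectic mice (log2 fold change 2.67, edgeR adjusted p = 0.000878). Acsl3 and Slc27a4 fell (log2 fold change -0.86 and -0.78, edgeR adjusted p = 0.0295 and 0.00933). The call on Acsl3 was lost with plain library totals (adjusted p = 0.0571). The median of this list was 0.19, and 17.6% of all tested genes passed in either direction. Of 3 genes of lipid droplet formation at the endoplasmic reticulum, Tmem159 and Fitm2, which help droplets form, rose (log2 fold change 0.66 and 0.67, edgeR adjusted p = 0.0321 and 0.0284), and Bscl2, which encodes seipin, did not pass (-0.19, adjusted p = 0.62).

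Phosphatidate and diacylglycerol also feed the synthesis of phospholipids. Of 18 tested genes of that branch, 3 rose and 2 fell, with a median log2 fold change of -0.09. Over all tested genes, 17.6% passed in either direction. Cds2, which acts on phosphatidate, and Crls1, which makes cardiolipin, rose (log2 fold change 1.03 and 1.92, edgeR adjusted p = 0.0106 and 0.00542). Cept1, which uses diacylglycerol, rose as well (0.68, edgeR adjusted p = 0.0234). Pcyt2 and Pemt, of phosphatidylethanolamine synthesis and its methylation, fell (log2 fold change -0.55 and -0.90, edgeR adjusted p = 0.0248 and 0.0137).

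Of 14 tested regulators of these genes, 1 rose and 2 fell, with a median log2 fold change of -0.27. Over all tested genes, 9.0% rose and 8.63% fell. Srebf1, the transcription factor gene of lipogenesis, had 514, 579 and 602 CPM in control and 143, 264 and 83.8 CPM in cachectic mice (log2 fold change -1.79, edgeR adjusted p = 0.0188). Insig1, which encodes a sterol sensor that retains SREBP in the endoplasmic reticulum, fell from 205 to 276 CPM to 31.5 to 64.9 CPM (log2 fold change -2.24, edgeR adjusted p = 0.00315). For both genes, as for Dgat2, Agpat2 and Gpat3, cachexia replicate 3 had the lowest value. The same held for Gpam, Dgat1 and Cebpa, which were not called, while Gpd1 was lowest in cachexia replicate 1. How many of all genes were lowest in cachexia replicate 3 was not counted, so this order cannot be called particular to these genes. Crtc2, a coactivator of CREB, rose (log2 fold change 0.49, edgeR adjusted p = 0.0213). Pparg and Cebpa, which drive the adipocyte program, had log2 fold changes of -0.28 and -0.95 and did not pass (edgeR adjusted p = 0.425 and 0.198).

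**Figure D4:**
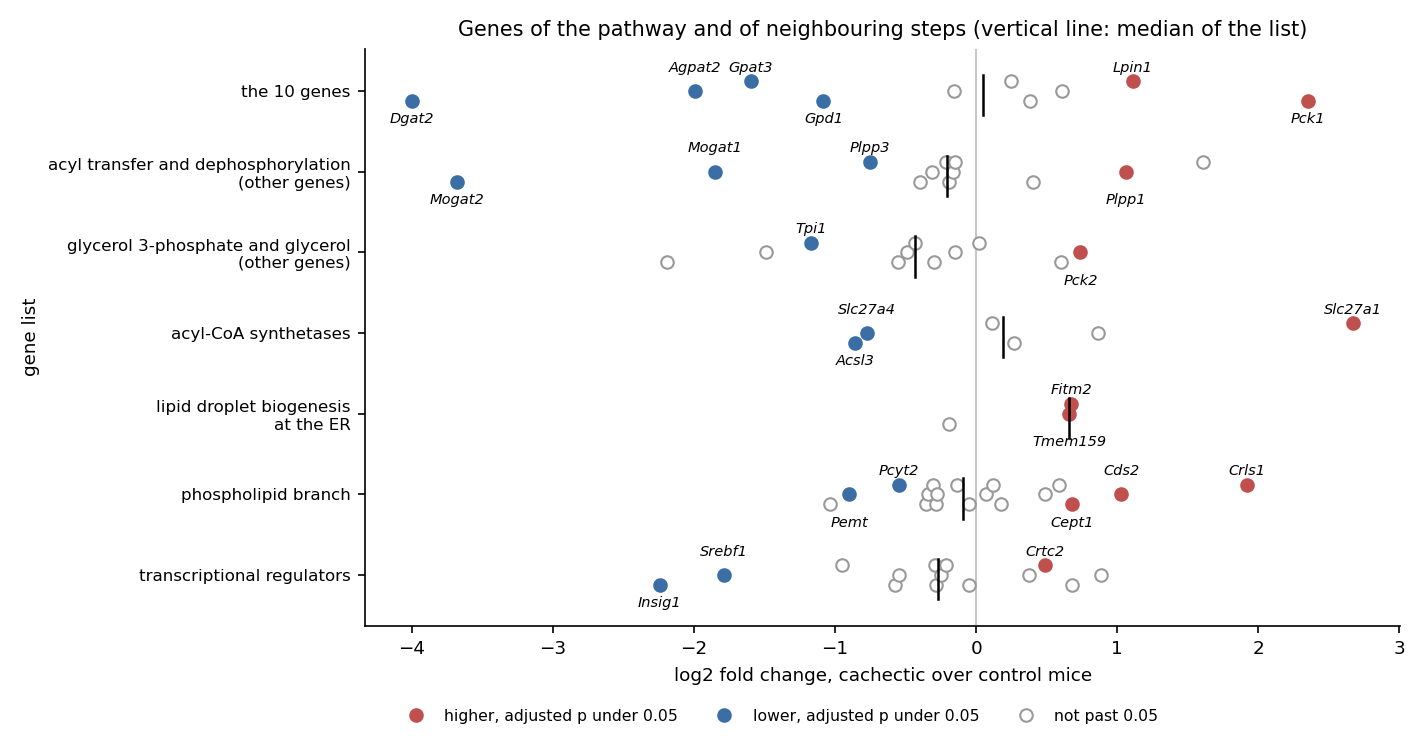
Log2 fold change of cachectic over control mice for the 10 genes and the 64 tested genes of 6 neighbouring lists, 1 line of points per list, with the list median as a vertical bar. Filled points had an adjusted p under 0.05 (edgeR) and are named. The lists hold 9 higher and 10 lower genes in all, and their medians lie between -0.43 and 0.66.

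The 10 genes also varied within groups. Control replicate 1 had the lowest value of the controls for 9 of the 10, Gpat4 being the exception, and cachexia replicate 3 had the lowest of the cachectic mice for 5 (Gpam, Gpat3, Agpat2, Dgat1 and Dgat2). The coefficient of variation between mice was 4.68% for Aqp7 to 46.6% for Pck1 in control, and 16.1% for Gpat4 to 53.2% for Dgat2 in cachectic mice. For Dgat2, the gap between the lowest control and the highest cachectic mouse was 9.34-fold, against 3.52-fold between the highest and lowest cachectic mice. For Pck1, the corresponding gap was 1.71-fold and smaller than the 2.53-fold range among the cachectic mice.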

How the data were processed

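RNA-seq of eWAT from 3 cachectic and 3 control mice was analyzed, grouped by the labels. The raw counts are reads per gene that the authors obtained from filtered paired-end reads with Hisat2 and featureCounts 1.5.0-p3. The authors also deposited FPKM values, computed from count and gene length. The authors' table of DESeq2 1.16.1 fold changes and p-values was not used. The processing notes name mm9, but 99.8% of the gene identifiers are in GENCODE M21 of GRCm38, 98.3% of these with the same coordinates, so coordinates are those of the files and read as GRCm38. Gpam is the member whose coordinates differ there.

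The test of the counts was edgeR's (version 4.0.16, R 4.3.3) quasi-likelihood test after filterByExpr and TMM normalization, with Benjamini-Hochberg adjustment over 16003 genes and no covariates. A standard error is the log2 fold change divided by the square root of F. The biological coefficient of variation was 0.264, which with the total counts sets the precision. Exact permutation tests were two-sided. They used log2 CPM with a pseudocount of 0.5, the logit of a share, or the log2 of a sum. Confidence intervals are at 95%.

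The 10 genes and all lists were chosen with earlier results of these data known, and no list was tested as a set. Besides the 10 genes, paralogs and up to 6 genes with the smallest p among those called are named per list. Bscl2, Pparg, Cebpa, Egfl7 and single adipocyte and fibroblast markers were chosen after their values were seen. Alternatives were RLE factors, library totals, no filter, a minimum of 10 counts per sample, omission of single mice, limma 3.58.1 (voom, or log2 FPKM with pseudocounts of 1 and 0.1), DESeq2 1.42.0 and a block for the replicate number. Those on the neighbouring lists were added after seeing the data. No samples were near-identical in counts. The scripts were tested on simulated counts.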

Additional observations from a re-analysis of the deposited data

How the results depend on the processing

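Under the RLE factors, library totals, both filters, DESeq2, limma-voom and limma on FPKM, 2 of the 10 genes rose and 4 fell, and the same 6 genes passed. The median log2 fold change of all genes moved by at most 0.05 between the scalings. Replicate numbers did not pair the mice: deviations of mice with the same number had correlations of -0.003, -0.011 and 0.008. With the replicate block, 1881 instead of 2821 genes were called, again with 2 of the 10 higher and 4 lower. DESeq2 called 3884 genes.

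Leaving out single mice mattered more. Without control replicate 3, 828 genes were called, and without control replicate 2, 1312. The number of the 10 genes that passed as higher ranged from 0 to 2 and as lower from 2 to 4. Among the neighbouring lists it ranged from 2 to 8 and from 3 to 9. Dgat2 and Agpat2 passed in all 15 alternatives. The log2 fold change ranged from -1.95 to -1.29 for Gpat3, 0.94 to 1.29 for Lpin1, 2.09 to 2.78 for Pck1, -1.31 to -0.90 for Gpd1 and 0.38 to 0.90 for Aqp7, and the calls lost or gained are given with each gene. Values near 0 changed sign: Gpam (-0.0078 to 0.54), Lpin2 (-0.37 to 0.054), Gpd1l (-0.074 to 0.11), and the logit shares of Gpat4 (-0.20 to 0.31) and Lpin1 (-0.20 to 0.54). Relative to the adipocyte markers, Gpam ranged from -0.29 to 0.44 and was -0.035 against the median of the markers, and Gpat4 was 0.40 against Plin1 and Adipoq alone, which raised all 10 genes alike. In the neighbouring lists, 14 of the 19 calls were lost in some alternative, among them Acsl3, Fitm2 and Crtc2 with the replicate block (adjusted p = 0.0688, 0.0592 and 0.0593). Mogat2 and Aqp9 had no value with at least 10 counts required in every sample. With 3 mice in each group, small changes such as those of Gpat4, Gpam and Dgat1 could not be separated from the spread, and no exact test could pass 0.05.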
